A study of Mus musculus with 13 samples.

Results

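The 10 genes studied here encode cytokine receptor chains and were followed through RNA-seq of mouse splenic B cells: Il2rg, Il4ra, Il21r, Il9r, Il2ra, Il6ra, Il10ra, Ifngr1, Ifnar1 and Il1r2. They were taken by gene symbol from the deposited count tables. All 10 were present among the 18872 symbols with reads, and all 10 passed the filter on low counts that left 13574 genes for testing. The B cells were selected from spleen by removing cells that bear CD43, a step that leaves mostly resting mature B cells. The libraries compare cells deficient for Regnase-1, an RNase encoded by Zc3h12a, with control cells, each with and without engagement of the B cell receptor (BCR). Deficient cells came from Regnase-1 f/f hCD20TamCre mice and control cells from Regnase-1+/+ hCD20TamCre mice, so both genotypes carried the Cre transgene, a tamoxifen-activated recombinase driven by human CD20 sequences that are active in B cells. Deficient stimulated cells (3 libraries) and control stimulated cells (3 libraries) were treated with anti-IgM F(ab')2 for 4 h. Deficient unstimulated cells (3 libraries) and control unstimulated cells (4 libraries) were untreated. Ages and tamoxifen doses are not given in the labels.

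Cytokine receptors are built from chains that pair when the cytokine binds, and most of those described here lack enzymatic activity and signal through Janus kinases and STAT factors. Il2rg encodes the common gamma chain, which is shared by the receptors for IL-2, IL-4, IL-9 and IL-21, while Il4ra, Il21r, Il9r and Il2ra encode the chains that make each of those receptors specific. In B cells IL-4 and IL-21 from helper T cells drive growth, class switching and plasma cell formation. Regnase-1 cleaves messenger RNAs of inflammatory and activation genes, among them its own.

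Libraries held 21407724 to 33244755 counts. The summed level of 10 B cell markers was 3522 to 7255 CPM (read counts scaled to library depth with TMM factors) in every library, against 141 to 1393 CPM for 8 erythroid markers (of which Hba-a1 and Hba-a2 were at 0), 77.4 to 502 CPM for 9 myeloid, 27.4 to 446 CPM for 11 neutrophil and 13.9 to 62.3 CPM for 10 T cell markers. Zc3h12a itself, the targeted gene, was measured at 92.6, 102 and 112 CPM in deficient stimulated libraries and at 157, 156 and 147 CPM in control stimulated libraries. Without stimulation it was at 89.2, 99.6 and 111 CPM in deficient libraries and at 124, 131, 121 and 124 CPM in control libraries. These counts cover the whole gene, and the labels do not say which exons are deleted. The groups did not overlap in either state, and the difference passed the test in stimulated cells (log2 fold change -0.58 ± 0.08 SE, edgeR adjusted p = 0.000784). In unstimulated cells it did not pass (-0.32 ± 0.07, edgeR adjusted p = 0.106). The unstimulated difference passed in DESeq2 (-0.31, adjusted p = 0.0175) and with sex as a term (-0.38, edgeR adjusted p = 0.00848). It also passed without deficient unstimulated library 3 (edgeR adjusted p = 0.0372) or deficient stimulated library 1 (0.0289). Libraries of the same genotype and number were taken as 1 animal, which the labels do not state. The libraries of deficient animal 1 had the highest erythroid sums of their states, 1263 CPM stimulated and 1393 CPM unstimulated, against 141 to 512 CPM and 205 to 801 CPM in the others. Its neutrophil sums, 303 CPM stimulated and 446 CPM unstimulated, were far above those of the other deficient libraries (43.1 to 76.8 CPM), while control libraries reached 167 CPM stimulated and 429 CPM unstimulated. Xist and Y-linked reads put 1 of 3 deficient and 2 of 3 control stimulated libraries, and 1 of 3 deficient and 3 of 4 control unstimulated libraries, as female. The female deficient library of each state was that of animal 1, so among deficient libraries sex and this animal cannot be told apart. Bulk RNA cannot tell fewer cells of a type apart from less RNA per cell, and this holds for every level given here.

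To compare the receptor genes with each other, CPM were divided by the exon length of each gene in kilobases. On this length-scaled level Il2rg ranked first in all 4 groups. It averaged 270.1 ± 11.7 CPM per kb in deficient stimulated cells, 353 ± 6.03 in control stimulated cells, 236 ± 13.0 in deficient unstimulated cells and 282 ± 13.9 in control unstimulated cells (SD, n = 3, 3, 3 and 4). Il21r came second in stimulated cells, at 168 ± 3.6 CPM per kb in deficient and 224 ± 7.41 CPM per kb in control cells. Il2ra held the third place in stimulated cells, with 85.1 ± 10.9 CPM per kb in deficient and 81.6 ± 4.50 CPM per kb in control cells, but in unstimulated cells it was near the bottom, at 9.85 ± 1.67 CPM per kb in deficient and 8.08 ± 1.5 CPM per kb in control cells. Il10ra, the ligand-binding chain of the IL-10 receptor, was the reverse. It stood at 23.5 ± 2.33 CPM per kb in deficient and 16.7 ± 5.11 CPM per kb in control stimulated cells, against 106 ± 12 CPM per kb in deficient and 76.1 ± 5.34 CPM per kb in control unstimulated cells. Il6ra, the ligand-binding chain of the IL-6 receptor, was the lowest in each group, between 2.05 CPM per kb in deficient stimulated and 5.86 CPM per kb in control unstimulated cells.

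Several neighbours in this order could not be separated. In control unstimulated cells the ranges of Il10ra and Ifngr1 overlapped, as did those of Ifngr1 and Il4ra, of Il4ra and Ifnar1, of Ifnar1 and Il9r, and of Il1r2 and Il2ra. In deficient unstimulated cells Il9r, at 27.1 ± 5.29 CPM per kb, stood below Il4ra with no overlap, and the ranges of Il10ra and Il21r overlapped. In deficient stimulated cells the range of Il1r2 overlapped those of Ifnar1 and Il10ra, and in control stimulated cells the range of Il10ra overlapped those of Ifngr1 and Il9r.

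**Figure D1:**
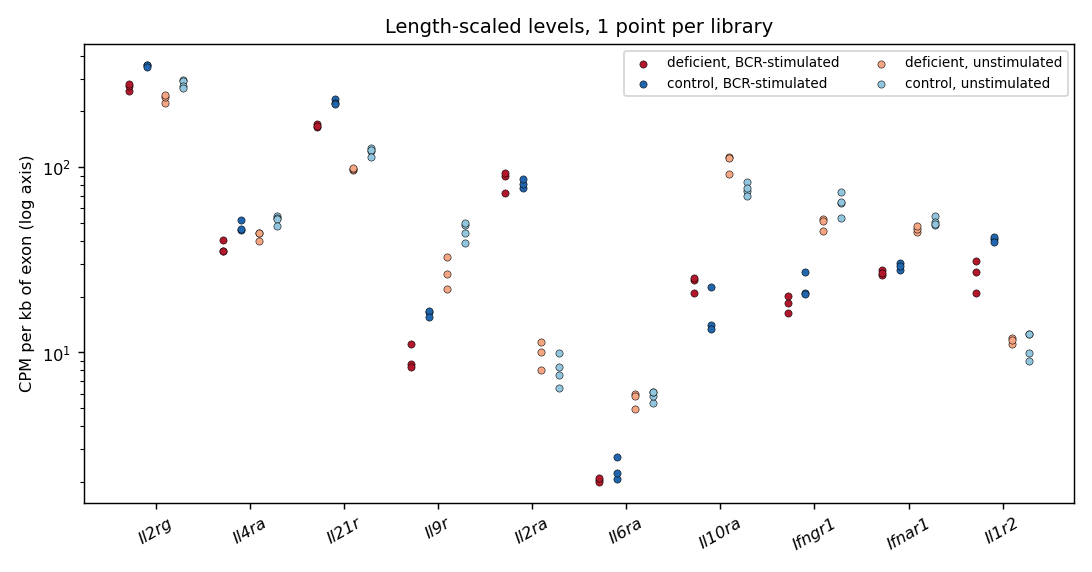
Length-scaled levels (CPM per kb of exon, log axis) of the 10 receptor genes, 1 point per library, with deficient stimulated, control stimulated, deficient unstimulated and control unstimulated cells side by side. Il2rg lies highest in every group and Il6ra lowest, and Il2ra is near 10 CPM per kb in unstimulated cells and above 70 CPM per kb in stimulated cells.

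Receptor transcripts were then compared between genotypes, the question being what loss of Regnase-1 changes in each state. After BCR stimulation, 5 of the 10 genes were lower in deficient than in control cells and none was higher: Il2rg, Il4ra, Il21r, Il9r and Il1r2. Of all 13574 genes tested, 2.01% passed the same threshold in this comparison, 0.751% higher and 1.26% lower. The 10 genes were chosen with earlier results of these data known, so the all-gene shares give context and are not a test. The median log2 fold change was -0.35 over the 10 genes and 0.00 over all genes. In 7 of the 10 the deficient and control libraries did not overlap, against 17.8% of all genes tested. In unstimulated cells 1 of the 10 passed, Il21r, which was lower, and across all genes 0.324% passed and 0.199% were lower. The libraries of the genotypes did not overlap there for 7 of the 10, against 8.72% of all genes, and the median log2 fold change was -0.20 over the 10 and -0.02 over all genes. Activation markers moved in the same direction. The summed level of 8 stimulated B cell markers was 7833, 9210 and 9704 CPM in deficient stimulated libraries and 10810, 11000 and 10480 CPM in control stimulated libraries, with no overlap, and 1623 to 2240 CPM in deficient and 2136 to 2507 CPM in control unstimulated libraries, with overlap. Their median log2 fold change between genotypes was -0.36 in stimulated and -0.30 in unstimulated cells, and 0 of the 8 passed in either state. The part of this in the receptor differences was not tested. Without both libraries of deficient animal 1, 4 of the 10 passed in stimulated cells, all but Il1r2 of the 5 (edgeR adjusted p = 0.0753), and 3 passed in unstimulated cells, Il2rg, Il21r and Il9r, all lower.

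Il2rg, on chromosome X (mm10, bases 101264378 to 101268255, minus strand), had 613, 654 and 667 CPM in deficient stimulated libraries and 850.4, 849 and 825 CPM in control stimulated libraries. Every deficient library was below every control library. The transcript was 1.30-fold lower (log2 fold change -0.38 ± 0.06 SE, edgeR adjusted p = 0.00288). In unstimulated cells it had 528, 572 and 588 CPM in deficient libraries and 707, 697, 652 and 639 CPM in control libraries, again with no overlap, but the difference did not pass the test (-0.26 ± 0.06, edgeR adjusted p = 0.0867). Split by sex, with 1 library on a side in each sex, the female deficient stimulated library had 613 CPM, against 825 and 849 CPM in control. The male deficient libraries had 654 and 667 CPM, against 850.4 CPM in the male control library. As the groups did not overlap, this split could not have come out otherwise, and it does not tell sex from genotype. The unstimulated difference passed with sex as a term (-0.30, edgeR adjusted p = 0.00524) and without deficient stimulated library 1 (-0.24, edgeR adjusted p = 0.0179). It also passed in DESeq2 (-0.25, adjusted p = 0.00301) and with upper-quartile factors (-0.23, edgeR adjusted p = 0.0231). The stimulated difference held in all 23 alternative settings. The female deficient libraries are those of animal 1, so the sex term and leaving out library 1 are not separate checks. In the annotation 728 exon bases of Il2rg are shared with Gm20489 on the same strand, so its reads could have been divided or dropped in counting.

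Il21r and Il4ra are neighbours on chromosome 7, both on the plus strand, with 23954 bases and 0 protein-coding genes between them (Il4ra at bases 125552120 to 125579474, Il21r at bases 125603429 to 125633570, mm10). Il21r had 546, 569.9 and 555 CPM in deficient stimulated libraries and 773, 737 and 726 CPM in control stimulated libraries. It was 1.34-fold lower in deficient cells (log2 fold change -0.42 ± 0.06, edgeR adjusted p = 0.000611), and this difference passed in all 23 alternatives. Without stimulation Il21r had 319, 326 and 328 CPM in deficient libraries and 409, 421, 413 and 376 CPM in control libraries. The deficient libraries lay close together and below every control library, and the gene was 1.25-fold lower (-0.32 ± 0.05, edgeR adjusted p = 0.0148). This call was lost without deficient unstimulated library 2 (edgeR adjusted p = 0.074) or control unstimulated library 3 (0.063).

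Il4ra, the chain shared by the receptors for IL-4 and IL-13, had 211, 242 and 213 CPM in deficient stimulated libraries and 312, 274 and 279.5 CPM in control stimulated libraries. The groups were apart, and Il4ra was 1.30-fold lower in deficient cells (log2 fold change -0.38 ± 0.07, edgeR adjusted p = 0.0116). In unstimulated cells it had 239.9, 263 and 266 CPM in deficient libraries and 326, 319.7, 314 and 288 CPM in control libraries. These groups were also apart, but the difference did not pass (-0.28 ± 0.07, edgeR adjusted p = 0.131), except with sex as a term (-0.34, edgeR adjusted p = 0.00596) or in DESeq2 (-0.27, adjusted p = 0.02). The stimulated call was lost without deficient library 3 (edgeR adjusted p = 0.0597) or control library 1 (0.0794). An antisense gene, Gm44876, overlaps 571 exon bases of Il4ra, and no source used here states the strand setting of the counting.

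Il9r, on chromosome 11 (bases 32187541 to 32200279, minus strand), encodes the specific chain of the receptor for IL-9 and had the largest estimated fold difference between genotypes of the 10 in both states. It had 55.0, 43.1 and 41.5 CPM in deficient stimulated libraries and 81.7, 83.3 and 77.0 CPM in control stimulated libraries. All deficient libraries were lower, by 1.74-fold (log2 fold change -0.80 ± 0.15, edgeR adjusted p = 0.018). Unstimulated deficient libraries had 162, 109.5 and 131 CPM, and unstimulated control libraries had 242, 248, 192 and 219 CPM. They were again apart, 1.68-fold lower in deficient cells, but just outside the threshold (-0.75 ± 0.14, edgeR adjusted p = 0.0521). The unstimulated difference passed without deficient library 1 (-0.91, edgeR adjusted p = 0.019), with sex as a term (edgeR adjusted p = 0.0365), with a filter of 1 CPM in 3 libraries (edgeR adjusted p = 0.0448), in DESeq2 (adjusted p = 1.38e-06) and in limma on the deposited log2 values (adjusted p = 0.035). The stimulated call was lost without deficient library 2 (edgeR adjusted p = 0.083) or 3 (0.0717), or without control library 1 (0.0732) or 2 (0.0693), and the log2 fold change then stayed between -0.79 and -0.72.

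Il2ra, which encodes the alpha chain that raises the affinity of the IL-2 receptor and is an activation marker (chromosome 2, bases 11642807 to 11693193, plus strand), shares the gamma chain but did not pass. It had 415, 514 and 529 CPM in deficient stimulated libraries and 443, 462 and 494 CPM in control stimulated libraries. These ranges overlapped, and the 95% interval of the log2 fold change was -0.29 to 0.41 (estimate 0.06, edgeR adjusted p = 0.94). In unstimulated cells it had 46.2, 57.5 and 65.1 CPM in deficient libraries and 36.5, 43.2, 56.8 and 47.9 CPM in control libraries, which also overlapped (0.28, interval -0.05 to 0.62, edgeR adjusted p = 0.66). Within a sex the stimulated libraries went opposite ways, with 1 library on a side in each sex. The female deficient library had 415 CPM, against 462 and 494 CPM in control. The male deficient libraries had 514 and 529 CPM, against 443 CPM in control.

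Il1r2 (chromosome 1, bases 40074079 to 40125231, plus strand) encodes a decoy receptor that binds IL-1 without passing on a signal. It had 40.0, 52.0 and 59.4 CPM in deficient stimulated libraries and 78.3, 80.2 and 75.7 CPM in control stimulated libraries. No library overlapped, and the gene was 1.55-fold lower in deficient cells (log2 fold change -0.63 ± 0.14, edgeR adjusted p = 0.035). In unstimulated cells the values were 21.2, 22.7 and 22.3 CPM in deficient libraries and 18.8, 24.1, 24.1 and 17.1 CPM in control libraries, so the genotypes overlapped (0.07, interval -0.22 to 0.36, edgeR adjusted p = 0.927). Neutrophils also express Il1r2. Their 11 markers summed to 303, 43.1 and 43.8 CPM in the deficient stimulated libraries and to 27.4, 71.2 and 167 CPM in the control stimulated libraries. The part of neutrophil RNA in the Il1r2 level was not tested. The stimulated Il1r2 call was the least stable of the 5. It was lost on leaving out deficient stimulated library 1 (edgeR adjusted p = 0.0699) or 2 (0.099), control stimulated library 1 (0.114), 2 (0.119) or 3 (0.0829), or deficient unstimulated library 2 (0.0591) or 3 (0.0546), with log2 fold changes of -0.65 to -0.48. A fit of the stimulated groups alone also lost the call (-0.62, edgeR adjusted p = 0.0841).

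**Figure D2:**
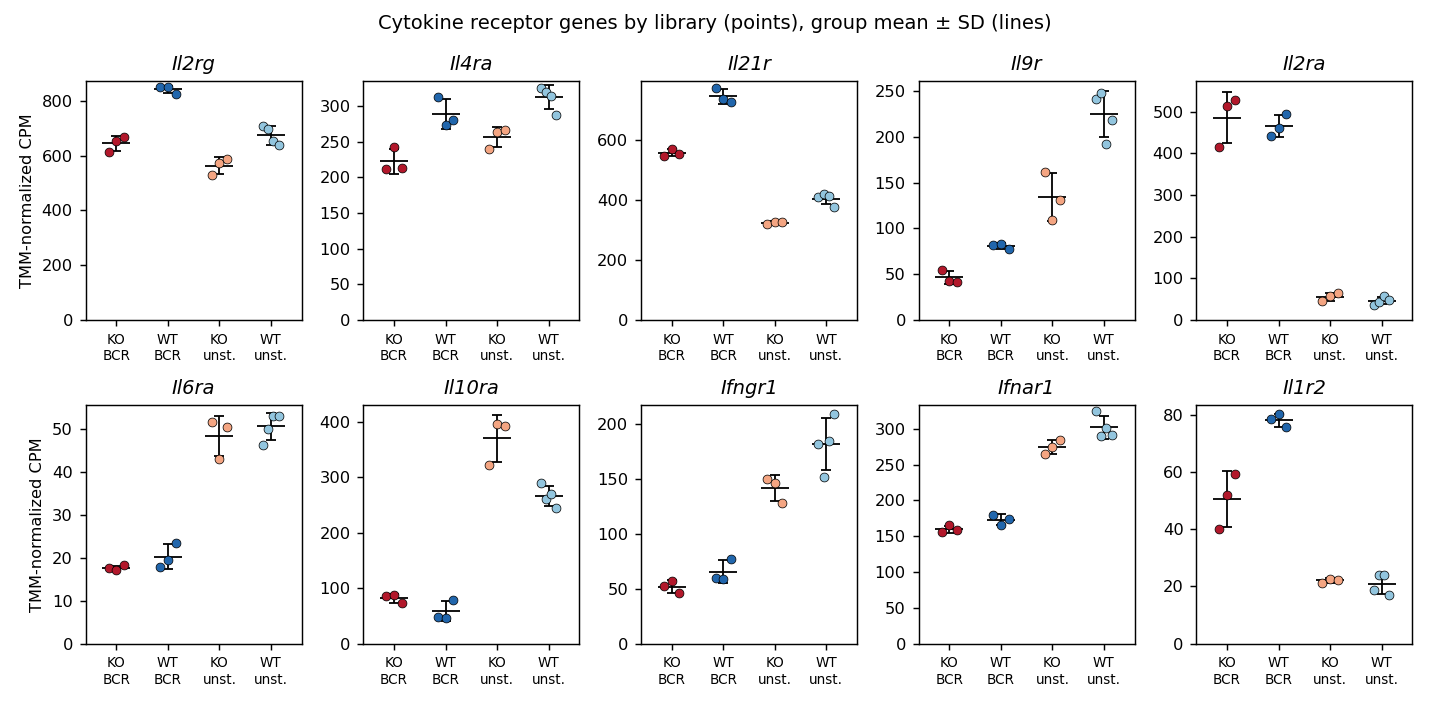
Level of each of the 10 receptor genes (CPM, TMM-normalized) in each library, with the group mean and SD, for deficient stimulated, control stimulated, deficient unstimulated and control unstimulated cells. Il2rg, Il4ra, Il21r and Il9r are lower in deficient libraries in both states with no overlap, Il1r2 is lower in stimulated deficient libraries, and Il10ra lies higher in the deficient group means. Ifngr1 and Ifnar1 are also lower in both states with no overlap, by narrow gaps.

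The remaining chains did not pass in either state. Il10ra (chromosome 9, bases 45253837 to 45269149, minus strand), which binds the inhibitory cytokine IL-10, lay in the other direction. It had 86.0, 88.0 and 73.0 CPM in deficient stimulated libraries and 49.0, 47.0 and 78.9 CPM in control stimulated libraries, which overlapped through control library 3. The log2 fold change was 0.50 ± 0.18 (interval 0.10 to 0.89, edgeR adjusted p = 0.267), and without control library 3 it was 0.78 and passed (edgeR adjusted p = 0.00209). That library also had the highest myeloid marker sum of the control stimulated libraries, 181 CPM over 9 markers, against 94.5 and 87.6 CPM, while deficient library 1, at 182 CPM of these markers, had 86.0 CPM of Il10ra. The part of the myeloid RNA in the Il10ra level was not tested. In unstimulated cells Il10ra had 321, 396 and 392 CPM in deficient libraries and 289, 261, 270.4 and 244 CPM in control libraries. Every deficient library was higher, and the difference did not pass (0.47 ± 0.16, edgeR adjusted p = 0.412). It passed in a fit of the unstimulated groups alone (0.50, edgeR adjusted p = 0.0085) and without control stimulated library 3 (0.47, edgeR adjusted p = 0.0313).

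Ifngr1 (chromosome 10, bases 19591949 to 19610229, plus strand), the ligand-binding chain of the interferon gamma receptor, had 52.6, 57.3 and 46.3 CPM in deficient stimulated libraries and 59.9, 59.0 and 77.5 CPM in control stimulated libraries. The groups touched no common value, but the difference did not pass (log2 fold change -0.33, interval -0.61 to -0.04, edgeR adjusted p = 0.319). In unstimulated cells its level was 128 to 150.3 CPM in deficient and 152 to 209 CPM in control libraries (-0.36, interval -0.62 to -0.10, edgeR adjusted p = 0.395). Ifnar1 (chromosome 16, bases 91485238 to 91507441, plus strand), a chain of the type I interferon receptor, differed little: it had 155 to 165.1 CPM in deficient and 165.3 to 180.0 CPM in control stimulated libraries (-0.12, interval -0.24 to 0.01, edgeR adjusted p = 0.448). These ranges did not overlap, but the gap was narrow. Without stimulation Ifnar1 had 266 to 285 CPM in deficient and 289.6 to 325 CPM in control libraries (-0.13, interval -0.25 to -0.02, edgeR adjusted p = 0.484). Il6ra (chromosome 3, bases 89864059 to 89913196, minus strand), which shares 242 exon bases with the antisense gene Gm42809, overlapped in both states, with log2 fold changes of -0.20 in stimulated cells (interval -0.41 to 0.02, edgeR adjusted p = 0.479) and -0.07 in unstimulated cells (interval -0.26 to 0.13, edgeR adjusted p = 0.892).

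**Figure D3:**
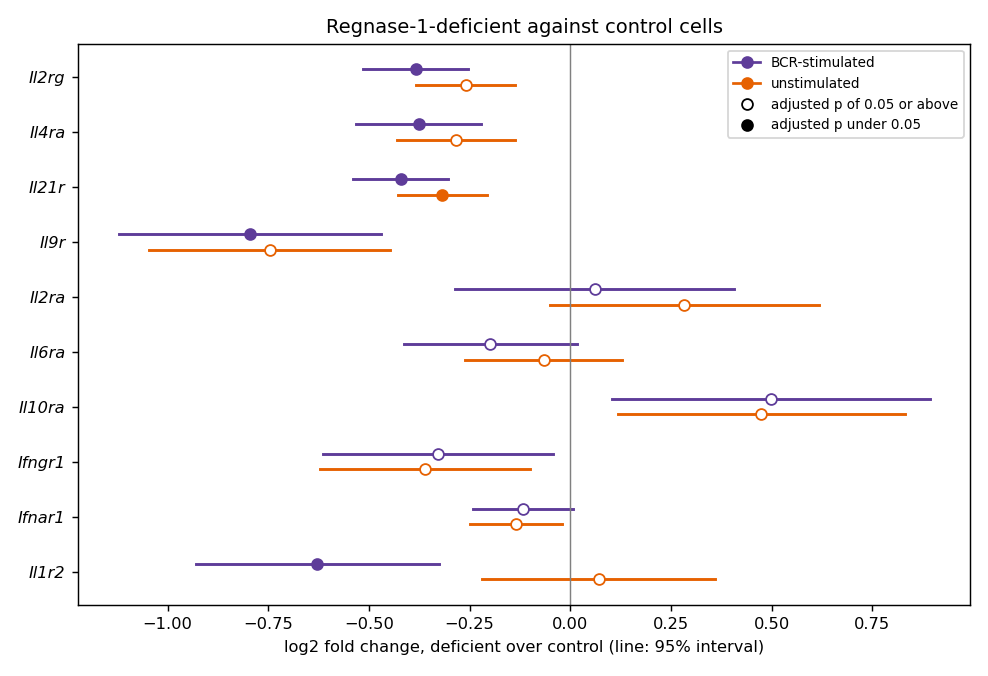
Log2 fold change of each receptor gene, deficient over control, in stimulated and in unstimulated cells, with its 95% interval and filled points for an edgeR adjusted p under 0.05. Il2rg, Il4ra, Il21r, Il9r and Il1r2 are filled on the negative side in stimulated cells, Il21r alone in unstimulated cells, and Il10ra lies on the positive side in both without passing.

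BCR stimulation changed most of the receptor genes in both genotypes. In deficient cells 4 of the 10 rose and 6 fell within 4 h, and in control cells 4 rose and 5 fell, so each of the 10 passed in at least 1 genotype. Stimulation changed most of the transcriptome: 57.9% of all genes tested passed in deficient cells, 28.3% higher and 29.6% lower, and 60.3% passed in control cells, 28.5% higher and 31.8% lower. The counts of the receptor genes in each direction are to be read against these shares. The libraries did not overlap between states for 9 of the 10 genes in each genotype, against 62.0% of all genes in deficient and 63.5% in control cells. The median log2 fold change of all genes was -0.11 in deficient and -0.13 in control cells, and -0.49 and -0.46 over the 10 receptor genes.

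Il2ra rose most. It averaged 486 ± 62.1 CPM in stimulated and 56.3 ± 9.54 CPM in unstimulated deficient cells (SD, n = 3 each), 8.66-fold higher (log2 fold change 3.11 ± 0.17, edgeR adjusted p = 1.57e-08). In control cells it averaged 466 ± 25.7 CPM with stimulation and 46.1 ± 8.54 CPM without (SD, n = 3 and 4), 10.1-fold higher (3.34 ± 0.16, edgeR adjusted p = 2.82e-09). Il1r2 came next, 2.29-fold higher in deficient cells (1.19 ± 0.14, edgeR adjusted p = 5.72e-06) and 3.71-fold higher in control cells (1.89 ± 0.13, edgeR adjusted p = 1.66e-08). Il21r rose 1.72-fold in deficient cells and 1.84-fold in control cells (0.78 ± 0.06 and 0.88 ± 0.05, edgeR adjusted p = 6.25e-09 and 4.76e-10). Il2rg rose by less, 1.15-fold in deficient and 1.25-fold in control cells (0.20 ± 0.06 and 0.32 ± 0.06, edgeR adjusted p = 0.0117 and 0.000135). The Il2rg rise in deficient cells was lost without deficient stimulated library 3 (edgeR adjusted p = 0.0509).

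Il10ra fell most, to 82.3 ± 8.16 CPM in stimulated deficient cells, against 369.9 ± 42.1 CPM in unstimulated deficient cells, which is 4.49-fold lower (log2 fold change -2.17 ± 0.18, edgeR adjusted p = 1.04e-06). In control cells it was at 58.3 ± 17.9 CPM with stimulation and 266 ± 18.7 CPM without, 4.57-fold lower (-2.19 ± 0.18, edgeR adjusted p = 6.3e-07). Il9r was 2.89-fold lower with stimulation in deficient cells and 2.79-fold lower in control cells (edgeR adjusted p = 2.33e-06 and 1.58e-06). Of the 4 chains specific for a gamma chain cytokine it was the only one lower by more than 2-fold. Il6ra was 2.73-fold lower in deficient and 2.49-fold lower in control cells. Ifngr1 was 2.72-fold lower in deficient and 2.78-fold lower in control cells, and Ifnar1 1.72-fold lower in deficient and 1.74-fold lower in control cells. For these 3 genes the edgeR adjusted p was 6.56e-07 or less in each genotype. Il4ra moved least. Its log2 fold change was -0.21 ± 0.07 in deficient cells (edgeR adjusted p = 0.0247) and -0.11 ± 0.07 in control cells (0.171), close to the all-gene medians, and both calls depended on the setting. The deficient fall was lost in 8 of 23 alternatives, among them without stimulated library 1 (0.123) or 3 (0.0991) and without unstimulated library 2 (0.0809) or 3 (0.0794), and the control fall passed with the animal as a block (-0.15, edgeR adjusted p = 0.0126) and with upper-quartile factors (-0.18, 0.0147).

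**Figure D4:**
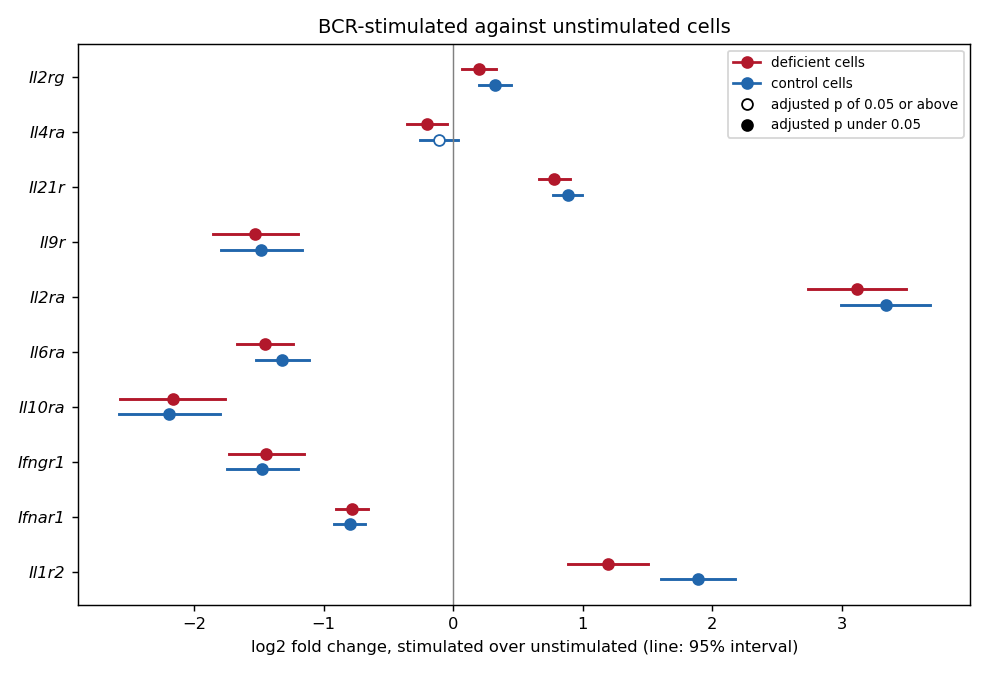
Log2 fold change of each receptor gene, stimulated over unstimulated, in deficient and in control cells, with its 95% interval. Il2ra, Il1r2, Il21r and Il2rg lie above 0 in both genotypes, Il10ra, Il9r, Ifngr1, Il6ra and Ifnar1 lie below 0, and Il4ra lies close to 0.

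Whether the response to stimulation differed between genotypes was tested as an interaction, the deficient response minus the control response. None of the 10 passed in edgeR or DESeq2, and 1 had an unadjusted p under 0.05; over all genes 0.00737% passed. That 1 was Il1r2, whose response was smaller in deficient cells (difference of log2 fold changes -0.70 ± 0.19, interval -1.12 to -0.28, edgeR adjusted p = 0.639). With the animal as a block the difference passed (-0.64, edgeR adjusted p = 0.0437). For the gamma chain receptors the estimates and their intervals were -0.12 (-0.30 to 0.05) for Il2rg, -0.09 (-0.31 to 0.12) for Il4ra and -0.10 (-0.26 to 0.06) for Il21r. The intervals were wider for Il2ra, -0.22 (-0.70 to 0.26), and Il9r, -0.05 (-0.49 to 0.39). For Il21r and Il4ra a genotype difference that changed with stimulation was therefore not detectable within these intervals.

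Promoter sequence is shown for 3 of these genes as examples, Il2ra, Il21r and Il9r. Il2ra rose most on stimulation, and Il9r had the largest estimated genotype difference. Il21r was the gene whose lower level in deficient cells passed the test in both states. The windows are the 250 bases before the RefSeq transcription start (GRCm38.p6, the mm10 assembly), 5′ to 3′ on the gene's strand, with letters matching a loose NF-kB motif, GGG and CC with any 5 bases between them, in capitals. RefSeq promoters were matched for the receptor genes other than Il10ra.
Il2ra, chr2:11642542-11642791, plus strand: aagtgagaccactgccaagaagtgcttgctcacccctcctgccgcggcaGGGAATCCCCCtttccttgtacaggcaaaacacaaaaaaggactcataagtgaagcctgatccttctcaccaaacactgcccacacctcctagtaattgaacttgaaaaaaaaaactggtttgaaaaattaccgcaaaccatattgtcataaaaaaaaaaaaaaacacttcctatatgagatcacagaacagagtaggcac
Il21r, chr7:125603179-125603428, plus strand: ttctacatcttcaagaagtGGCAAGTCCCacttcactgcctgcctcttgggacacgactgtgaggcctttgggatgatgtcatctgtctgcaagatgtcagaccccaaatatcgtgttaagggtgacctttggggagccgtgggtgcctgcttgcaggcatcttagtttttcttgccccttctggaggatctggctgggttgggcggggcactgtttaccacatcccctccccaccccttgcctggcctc
Il9r, chr11:32200280-32200529, minus strand: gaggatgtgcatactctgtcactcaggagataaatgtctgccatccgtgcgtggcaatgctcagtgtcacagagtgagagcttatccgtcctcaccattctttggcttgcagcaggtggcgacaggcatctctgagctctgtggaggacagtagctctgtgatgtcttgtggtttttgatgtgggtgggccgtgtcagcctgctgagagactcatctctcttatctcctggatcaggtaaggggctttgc
Il2ra holds a pair of overlapping matches that begin 201 bases before the start, and Il21r holds 1 that begins 231 bases before it and reads on the opposite strand. Il9r holds none. The same motif, on either strand, is in 46.0% of 32536 promoters of this length, so its presence is common. Matches to the other motifs searched were rarer among all promoters: TGANTCA (AP-1) in 6.73%, TTCNNNGAA (STAT) in 7.04%, ATGCAAAT (octamer) in 1.62% and TGACGTCA (CRE) in 1.56%. Among the receptor genes Il4ra had an octamer match beginning 139 bases before its start, Il1r2 a STAT match beginning 111 bases before, and Il6ra and Ifngr1 NF-kB matches. These positions count from RefSeq starts, and annotated exons reach into some windows. Exons of Il4ra cover 151 of the 250 bases of its window, and the octamer match lies past the first base of Il4ra given above. The Il1r2 window lies within the gene bounds given above and holds 108 exon bases of Il1r2. Annotated exons of other genes add up to 250 bases in the Il6ra window. Il2rg and Ifnar1 had no match to any of the motifs. NF-kB matches were found in genes that rose (Il2ra, Il21r) and in genes that fell (Il6ra, Ifngr1), and were absent from others of each direction (Il2rg and Il1r2, Il9r and Ifnar1). Whether any match bears on the response was not tested.

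Chains that pair in a receptor were set against each other within each library, as log2 ratios of CPM, for description without a test. The ratios of Il4ra and of Il21r to Il2rg overlapped between genotypes in each state. Il4ra:Il2rg averaged -1.54 ± 0.11 in deficient stimulated and -1.55 ± 0.09 in control stimulated cells, and -1.13 ± 0.01 in deficient and -1.11 ± 0.04 in control unstimulated cells (SD, n = 3, 3, 3 and 4). Il21r:Il2rg averaged -0.21 ± 0.05 in deficient stimulated and -0.17 ± 0.03 in control stimulated cells, and -0.79 ± 0.06 in deficient and -0.74 ± 0.06 in control unstimulated cells. The ratio of Il2ra to Il2rg was higher in deficient cells. It lay between -0.56 and -0.33 in deficient stimulated libraries and between -0.94 and -0.74 in control stimulated libraries, with no overlap. In unstimulated libraries it was -3.51 to -3.17 in deficient and -4.27 to -3.52 in control cells, and the groups were barely apart. Between genotypes the stimulated log2 fold change was 0.06 for Il2ra and -0.38 for Il2rg. The stimulated ratio is therefore not a result separate from the Il2rg difference given above. Il6ra against Il6st, the chain that carries the IL-6 signal, averaged -1.75 ± 0.11 in deficient and -1.91 ± 0.22 in control stimulated cells, and -0.67 ± 0.07 in deficient and -0.86 ± 0.19 in control unstimulated cells, with overlap in both states.

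**Figure D5:**
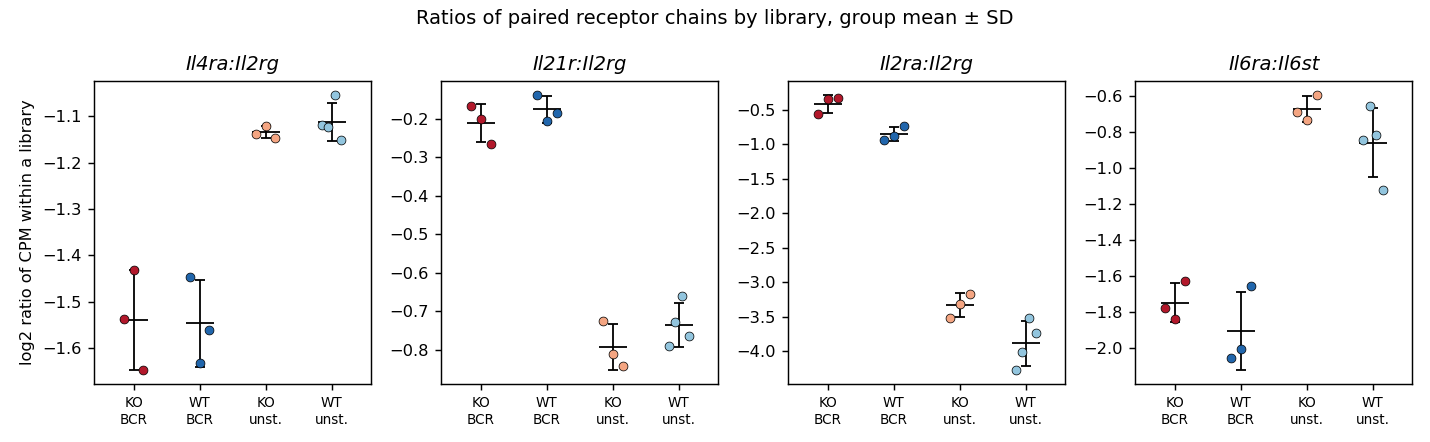
Log2 ratio of the levels of paired receptor chains in each library (points) with the group mean and SD, for deficient (KO) and control (WT) cells with (BCR) and without (unst.) stimulation; each panel has its own axis. Il4ra:Il2rg and Il21r:Il2rg overlap between genotypes, and Il2ra:Il2rg is higher in deficient stimulated libraries than in every control stimulated library.

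The 10 chains were set beside 50 other receptor and Janus kinase genes, of which 49 were matched and 39 had counts enough to be tested. Between genotypes 0 of the 39 passed in unstimulated cells and 1 passed in stimulated cells, Il17ra, the common chain of the IL-17 receptors. Over all genes tested 0.324% passed in unstimulated and 2.01% in stimulated cells. Il17ra averaged 141 ± 7.80 CPM in deficient and 178 ± 11.1 CPM in control stimulated cells (log2 fold change -0.33 ± 0.07, edgeR adjusted p = 0.0259), and its call was lost without deficient library 1 (0.0513) or 3 (0.062) or control library 1 (0.141). The median log2 fold change of the 39 in stimulated cells was -0.01. Jak1 and Jak3, the kinases bound by the gamma chain receptors, did not pass between genotypes in stimulated cells (log2 fold changes -0.04 and -0.03, edgeR adjusted p = 0.923 and 0.962) or in unstimulated cells (-0.26, interval -0.43 to -0.09, and -0.05, interval -0.27 to 0.17, edgeR adjusted p = 0.32 and 0.936). With stimulation 6 of the 39 rose and 14 fell in deficient cells, and 4 rose and 10 fell in control cells. Over all genes tested 28.3% rose and 29.6% fell in deficient cells, and 28.5% rose and 31.8% fell in control cells. Il15ra, which presents IL-15, and Il1r1, the signalling IL-1 receptor for which Il1r2 is the decoy, rose in both genotypes. Il1r1 averaged 20.9 ± 3.72 CPM in stimulated and 3.29 ± 0.60 CPM in unstimulated deficient cells (log2 fold change 2.67 ± 0.19, edgeR adjusted p = 7.61e-09), and 27.4 ± 2.23 CPM in stimulated and 3.58 ± 0.83 CPM in unstimulated control cells (2.93 ± 0.17, edgeR adjusted p = 6.24e-10). Il15ra rose by 2.52 ± 0.18 in deficient and 2.61 ± 0.16 in control cells on the log2 scale. Il27ra, the specific chain of the IL-27 receptor, fell in both genotypes (-1.56 ± 0.13 and -1.55 ± 0.12), as did Ifngr2, the partner of Ifngr1 (-0.92 ± 0.08 in deficient and -1.25 ± 0.08 in control cells), and Il17ra (-0.97 ± 0.07 in deficient and -0.86 ± 0.07 in control cells).

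For each receptor gene the tested genes whose log2 level followed it most closely over the 13 libraries were found by Pearson r. The libraries share 2 states that differ in most genes, and r is given with no test. Il21r was closest to Nfe2l1 (r = 0.99), Zmiz2 and Stat6, and Stat6 encodes the STAT factor used by IL-4. Il2rg was closest to Zfp36l1 (r = 0.98), which encodes an RNA-binding protein, and to Dusp2 and Sgk1. Il4ra was closest to Sh2b3 (r = 0.98), which encodes an adaptor of cytokine signalling, followed by Rela, an NF-kB subunit, and Foxp4. Il9r was closest to Lrrc8c (r = 0.99), Il2ra to Dimt1 (r = 0.997), Il1r2 to Gripap1 (r = 0.98), Il10ra to Pecam1 (r = 0.99), Ifnar1 to Cerk (r = 0.998), Ifngr1 to Mtap7d1 (r = 0.99) and Il6ra to Soat1 (r = 0.99).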

How the data were processed

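Per the submitters' processing notes, reads were handled with TopHat and HTSeq on mm10, with no versions given; annotation and strand setting are not given in the sources used here. The authors deposited raw counts per gene symbol and, with DESeq2 named in the notes, log2 values per library whose transformation is not given there. The count tables held 23337 symbols, of which 1 with a missing cell was left out. Counts of all 13 libraries were fitted with edgeR 4.0.16 in R 4.3.3 (filterByExpr by group with a minimum count of 10, TMM factors, robust quasi-likelihood fit, a mean per group, 9 residual degrees of freedom, common biological coefficient of variation 0.175). Standard errors are the log2 fold change over the root of F, and calls are Benjamini-Hochberg adjusted p under 0.05 over 13574 genes. The pipeline was tested on simulated data. DESeq2 1.42.0 on the counts and limma 3.58.1 on the deposited log2 values were alternatives.

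Exon lengths and positions came from GENCODE vM21, and promoters from RefSeq. The 10 genes, the wider lists and the tests were chosen with earlier results of these data known. The genes named beyond the 10 were the called genes of the wider lists with the smallest p, up to 4 per comparison, and the 3 tested genes most like each receptor gene in its level; the Janus kinases, Il6st and Ifngr2 in deficient cells were added as partners after their values were seen. Replicates differed by more than sampling noise (chi-square per gene 8.24 to 36.5). The labels do not call each library a separate animal; if some share one, the p-values describe the scatter of the libraries alone. Libraries of the same genotype and number deviated together across states (r of 0.558 to 0.803 over 6 pairs), so the animal was used as a block for stimulation; same-numbered libraries of different genotype did not (r of -0.563 to -0.06). Depth was 21407724 to 33244755 counts, where 3 counts are 0.0902 to 0.140 CPM; intervals are from the fit.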

Additional observations from a re-analysis of the deposited data

Results flagged for a closer look

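The response of Il1r2 to stimulation differed between genotypes once the animal was a block in the fit: the deficient log2 response minus the control response was -0.64 (edgeR adjusted p = 0.0437). Il1r2 averaged 50.5 ± 9.77 CPM in deficient stimulated and 22.1 ± 0.76 CPM in deficient unstimulated cells, and 78.1 ± 2.25 CPM in control stimulated and 21.03 ± 3.58 CPM in control unstimulated cells (SD, n = 3, 3, 3 and 4). Without the block the difference was -0.70 and did not pass (edgeR adjusted p = 0.639). Single libraries that stand apart were looked for with Dixon's test in control unstimulated cells, the one group with 4 libraries, and none was found among the 14 quantities tested there; groups of 3 were not tested.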

How the results depend on the processing

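Il21r and Il2rg in stimulated cells passed in all 23 alternatives, with log2 fold changes of -0.44 to -0.39 and -0.42 to -0.34. Counts of the 10 genes that passed in unstimulated cells (1) were 2 with upper-quartile factors, with a filter of 1 CPM in 3 libraries, in a fit of only the groups compared, with the library number as a replicate block and with limma on the deposited log2 values, 3 without both libraries of deficient animal 1, and 4 with DESeq2 or sex as a term; leaving out 1 library gave 0 to 2. In stimulated cells (5) leaving out 1 library gave 2 to 5, and a fit of only the groups compared gave 4, as did leaving out both libraries of deficient animal 1. For the difference of responses the count was 1 with the animal as a replicate block. Of the other receptor and kinase genes, 3 passed in unstimulated cells with sex as a term, 2 in stimulated cells in a fit of only the groups compared and with the library number as a block, 0 to 2 there on leaving out 1 library, and 23 instead of 14 in the control response with the animal as a block. The library number, which does not pair the genotypes, moved the unstimulated Il9r difference past the threshold (-0.77, edgeR adjusted p = 0.0348). The blocks changed no other call among the 10 than this and those given for Il4ra and Il1r2.

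Some estimates near 0 turned sign. The unstimulated Il1r2 difference was -0.0063 with the library number as a block and -0.0155 to 0.14 on leaving out 1 library. The differences of responses turned as follows: Il10ra to -0.0064 with DESeq2 size factors, -0.0057 with DESeq2 and -0.0812 without deficient animal 1 (-0.11 to 0.30 on leaving out 1 library), Ifngr1 to -0.0003 with DESeq2 size factors and -0.0378 with the animal as a block (-0.0433 to 0.17), Ifnar1 to -0.0169 with DESeq2 size factors, -0.0047 with upper-quartile factors, -0.015 with DESeq2 and -0.0173 with limma (-0.0213 to 0.0455), and Il9r -0.20 to 0.11. Zc3h12a in the deficient response was -0.0506 with upper-quartile factors (-0.0339 to 0.14). On leaving out 1 library, the Il2ra difference in stimulated cells was -0.0054 to 0.17 and the unstimulated Il6ra difference -0.12 to 0.0108. The cause was not tested.

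Over all genes the unstimulated count of 44 was 158 with DESeq2, 198 with sex as a term, 70 with upper-quartile factors, 74 without deficient animal 1 and 17 to 74 on leaving out 1 library; the stimulated count of 273 was 507, 511 and 129 to 369 with DESeq2, sex and 1 library left out; the difference count of 1 was 12 with upper-quartile factors, 10 with no filter, 38 with DESeq2, 68 with the animal block, 19 with sex as a term and 13 without deficient animal 1. The all-gene median stimulation response moved between -0.20 and -0.03 across scalings. With 3 or 4 libraries a group, a difference that missed the threshold is not shown to be absent.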
